A study of Mus musculus with 36 samples.

Results

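LT-HSC sorted from the BM of *Apoe*-/-*Il27ra*+/- mice were compared between Ang II and PBS infusion. The comparison used 7 of the 36 RNA-seq libraries of the series, namely all those labelled as LT-HSC, *Il27ra* heterozygous and infused with either agent, 4 with Ang II and 3 with PBS. LT-HSC were gated as lineage-negative Sca-1+c-Kit+CD150+CD48- cells, and 5000 cells went into each library. All mice lacked *Apoe*, were male or female on a Western diet, and received Ang II or PBS from implanted pumps for 2 weeks. The study names littermate and cage-mate controls for its aneurysm model, and the labels do not say which mice were littermates. The heterozygous mice carried 1 intact *Il27ra* allele. For comparison, LT-HSC of *Apoe*-/-*Il27ra*-/- mice (7 libraries) and HPC-1 of *Apoe*-/-*Il27ra*+/- mice (7 libraries) under the same infusions were used, HPC-1 being the CD150-CD48+ progenitors that the labels call short-term HSC. Age and gender of the single mice are not given by the labels.

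LT-HSC sit at the top of the blood hierarchy, are mostly quiescent, and enter the cycle under stress to supply progenitors of all lineages. IL-27 signals through a receptor of Il27ra and gp130 (*Il6st*), which activates the kinases Jak1 and Jak2 and STAT transcription factors. Ang II, the effector peptide of the renin-angiotensin system, raises blood pressure through its type 1 receptor and also acts on BM progenitors.

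Total counts were 2191163, 2560838 and 5271346 in PBS replicates 1 to 3 and 2183648, 2568392, 4512346 and 6861078 in Ang II replicates 1 to 4. Depth did not differ beyond the spread between libraries (exact two-sided permutation test, p = 0.743), although 3 against 4 libraries cannot give a p below 0.0571. *Il27ra* (chr8:84030294-84042589, mm10), the gene whose dose defines the genotype, measured 44.6, 25.8 and 26.8 CPM with PBS and 31.4, 26.7, 28.4 and 33.9 CPM with Ang II. The groups overlapped, with PBS replicate 1 the highest of all 7, and the log2 fold change was −0.09 ± 0.29 (SE). The *Il27ra*-/- LT-HSC libraries lay between 7.33 and 19.7 CPM, below every heterozygous library. The only PBS library of mice with both alleles intact was at 17.8 CPM, within the range of the *Il27ra*-/- libraries, while those with Ang II were at 44.7 and 53.4 CPM, so the level did not follow gene dose throughout. *Apoe* (chr7:19696109-19699188) still gave reads despite the deletion that all mice carried, at 11.7, 14.6 and 14.3 CPM with PBS and 16.7, 15.3, 16.3 and 10.6 CPM with Ang II. These groups overlapped too, and gene counts do not show which exons the reads came from.

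The sorted identity was checked against its defining markers. *Slamf1*, which encodes CD150, ranged from 30.6 to 60.0 CPM in the 7 LT-HSC libraries and from 0.456 to 4.68 CPM in the 7 HPC-1 libraries. *Cd48* showed the opposite order, at 0 to 1.86 CPM in LT-HSC and 44.0 to 85.6 CPM in HPC-1. Neither marker overlapped between the populations. *Procr*, the endothelial protein C receptor of stem cells, ranged from 23.8 to 56.2 CPM in LT-HSC against 3.18 to 10.3 CPM in HPC-1, and *Flt3*, a receptor of multipotent progenitors, from 7.97 to 59.9 CPM against 222.9 to 467.9 CPM.

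Sex-linked genes split the mice of both groups. *Xist*, transcribed from the inactive X chromosome, measured 3.55 CPM in PBS replicate 1 and 4862 and 4753 CPM in PBS replicates 2 and 3. With Ang II it measured 19.6 and 13.4 CPM in replicates 1 and 2 and 4067 and 3831 CPM in replicates 3 and 4. The Y-linked *Ddx3y* had the reverse pattern, with 102.4, 96.1 and 79.8 CPM in PBS replicate 1 and Ang II replicates 1 and 2 and at most 0.339 CPM in the other libraries. By these genes, 1 of 3 PBS and 2 of 4 Ang II libraries had the male pattern, and the others the female pattern. All 3 libraries above 4000000 counts were female and all 3 male libraries were below it, so sex and depth cannot be told apart outside PBS replicate 2, the only shallow female library.

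PBS replicate 2 stood apart from the other 6 libraries. Counts were found in 26187 genes there, against 14931 to 21285 in the others, although its depth was low. When all LT-HSC libraries were thinned to 1980283 counts, 25371 genes had a count in this library, against 13608 to 18529 in the other 16. It held 510 genes with at least 3 counts that had none in any other LT-HSC library, whereas no other library held more than 39. Those with the most counts and an assigned name, picked after their values were seen, included *Slc12a1*, a kidney transporter, with 12 counts and *Dlx2*, a homeobox gene of the developing forebrain, with 11. Its correlation with the other 6 libraries across genes was 0.876 to 0.916, and the first principal component, with 46.5% of the variance, placed it at 129.9 and the others between −57.3 and 13.1. The main counts and the medians of most pathway lists are therefore given with and without it.

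**Figure D1:**
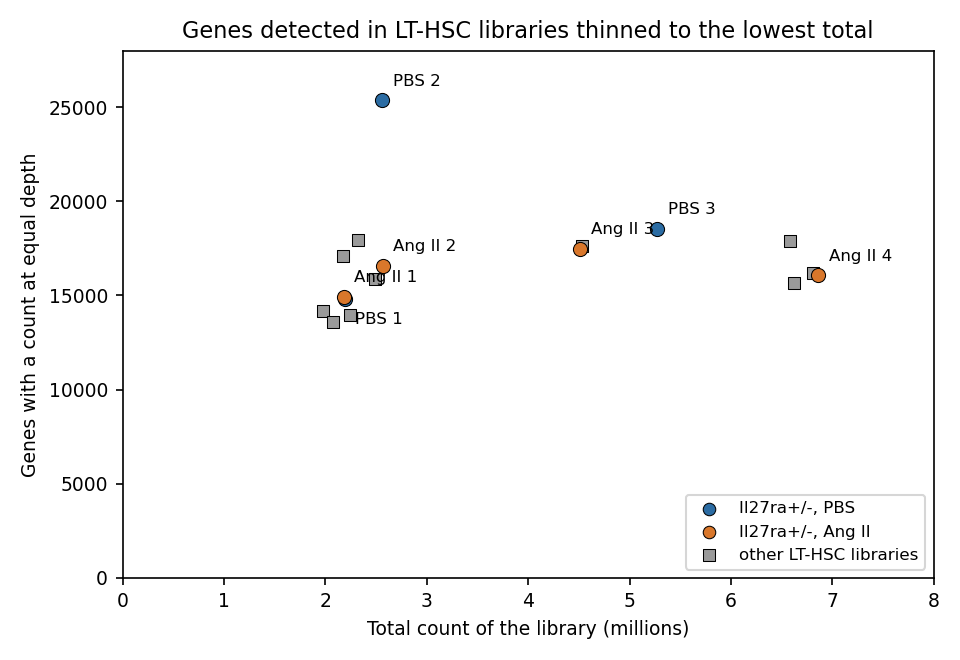
Genes with a count after thinning all 17 LT-HSC libraries to the lowest total (y axis) against the original total count (x axis); circles are *Il27ra*+/- libraries with PBS (blue) or Ang II (orange) and squares are the other LT-HSC libraries. PBS replicate 2 lies at 25371 genes and every other library at 18529 or fewer.

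In LT-HSC carrying 1 intact *Il27ra* allele, no gene passed the test for a difference of Ang II from PBS. Of 16365 genes tested with edgeR, 0 (0%) had an adjusted p under 0.05, and the smallest adjusted p was 0.962. At an unadjusted p under 0.05, 162 genes (0.99%) were higher and 644 (3.94%) were lower with Ang II. DESeq2 also called 0 genes, with 148 higher and 367 lower at the unadjusted level, and limma-voom called 0, with 390 higher and 784 lower. The median log2 fold change over all genes tested was −0.04.

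With edgeR, the excess of lower genes rested on PBS replicate 2. Of the 644 lower genes, 570 (88.5%) had their highest value in that library, and only 71 (11%) reached a mean of 5 CPM over the 7 libraries, against 157 of the 162 higher genes. Because the smallest LT-HSC group holds 1 library, a gene could enter the test through 1 library, and 1820 genes were tested with PBS replicate 2 and not without it. Without it, 0 of 14545 genes (0%) had an adjusted p under 0.05, and 65 (0.447%) were higher and 69 (0.474%) lower at the unadjusted level. All 162 higher genes but only 174 of the 644 lower genes were still tested, and 43 and 55 of them passed this level again. DESeq2 and limma-voom, also run without the library, called 0 genes each. At the unadjusted level DESeq2 gave 79 higher and 69 lower, whereas limma-voom gave 114 higher and 248 lower and so kept an excess of lower genes. With genes of at least 10 counts on average, and all libraries kept, 126 were higher and 135 lower.

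The leading genes were those with the smallest unadjusted p among named genes with at least 5 CPM on average and no overlap between the groups, 10 in each direction. Of all 16365 genes, 412 (2.52%) had every Ang II library above every PBS library and 401 (2.45%) had every one below. None of the 20 passed the test (edgeR adjusted p = 0.962 for each), and the absence of overlap was a condition of their choice. Those named below are not all of them.

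*Tnip2*, which encodes an A20-binding regulator of NF-κB and lies at chr5:34496087-34513991, measured 31.4, 42.8 and 44.7 CPM with PBS and 77.5, 67.6, 72.4 and 52.97 CPM with Ang II. Its log2 fold change was 0.76 ± 0.20, with a 95% interval of 0.33 to 1.18. The lowest Ang II library, replicate 4, was still above the highest PBS library, and without PBS replicate 2 the value was 0.81. *Lrpap1*, a chaperone of lipoprotein receptors, was at 63.4, 61.1 and 70.0 CPM with PBS and 92.7, 100.2, 88.6 and 94.96 CPM with Ang II (0.54 ± 0.18). Both groups varied little, and all 3 PBS libraries were well below the Ang II libraries.

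*Xab2*, a splicing and DNA repair factor, measured 77.1, 79.4 and 77.8 CPM with PBS and 110.4, 104.6, 99.6 and 109.4 CPM with Ang II (log2 fold change 0.44 ± 0.14). The PBS libraries lay within a few CPM of each other, PBS replicate 2 among them. *Nsrp1*, a splicing regulator, was at 55.3, 56.0 and 70.6 CPM against 146.7, 110.9, 81.2 and 87.4 CPM (0.80 ± 0.25). Ang II replicates 1 and 2, the male libraries of that group, were the highest. *Clasrp*, a partner of splicing-factor kinases, was at 41.1, 28.2 and 34.7 CPM against 69.7, 55.8, 49.3 and 52.3 CPM (0.71 ± 0.22), with PBS replicate 2 the lowest. *Cdk11b*, a kinase of transcription and splicing, was at 122.7, 84.5 and 116.5 CPM against 187.9, 161.2, 123.2 and 163.4 CPM (0.56 ± 0.18). Ang II replicate 3 was almost level with PBS replicate 1 for this gene. *Tada3*, an adaptor of histone acetyltransferase complexes, had a log2 fold change of 0.74 ± 0.25, *Zbtb22*, a zinc finger factor, 0.82 ± 0.24, and *Flot1*, a membrane raft scaffold, 0.56 ± 0.17. For these, PBS libraries ranged from 26.4 to 31.3, 18.8 to 23.0 and 46.2 to 66.0 CPM and Ang II libraries from 32.1 to 59.4, 25.5 to 45.7 and 74.0 to 90.3 CPM, in that order.

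Among genes lower with Ang II, *Tulp4*, a tubby-like protein (chr17:6106437-6251128), had the smallest unadjusted p, 0.001. It measured 18.8, 41.7 and 19.9 CPM with PBS and 9.32, 5.90, 9.68 and 7.96 CPM with Ang II, a log2 fold change of −1.70 ± 0.44. PBS replicate 2 was about double the other PBS libraries, and without it the value was −1.24 ± 0.48. *Arl6ip1*, which shapes endoplasmic reticulum tubules (chr7:118118891-118129662), measured 81.6, 88.9 and 74.2 CPM with PBS and 38.3, 48.0, 58.9 and 41.0 CPM with Ang II (−0.80 ± 0.23), and −0.74 without PBS replicate 2. All PBS libraries were high and close together. *Auts2*, a chromatin regulator of a Polycomb complex, was at 18.8, 24.4 and 16.6 CPM against 5.89, 12.2, 9.02 and 6.59 CPM (−1.24 ± 0.43). This gene was lowest in Ang II replicate 1 and highest in PBS replicate 2.

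*Atp5l*, a subunit of ATP synthase, was at 54.8, 30.2 and 29.1 CPM with PBS and 22.1, 23.2, 22.9 and 20.9 CPM with Ang II (−0.76 ± 0.29). PBS replicate 1 was far above the rest, and copies of this gene elsewhere in the genome may share its reads. *Slc5a3*, a myo-inositol transporter, was at 104.4, 88.9 and 68.9 CPM against 58.4, 54.6, 57.6 and 55.3 CPM (−0.63 ± 0.24), the PBS libraries again being the more variable. *Nbeal1* (−0.56 ± 0.20), *Aig1* (−0.60 ± 0.21), *Bend4* (−0.60 ± 0.23) and *Inka2* (−1.59 ± 0.59) were also among the leading genes. *Inka2*, an inhibitor of the kinase Pak4, was low throughout, at 7.60, 15.95 and 5.97 CPM with PBS and 2.33 to 4.399 CPM with Ang II, and its value without PBS replicate 2 was −1.06 ± 0.65.

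**Figure D2:**
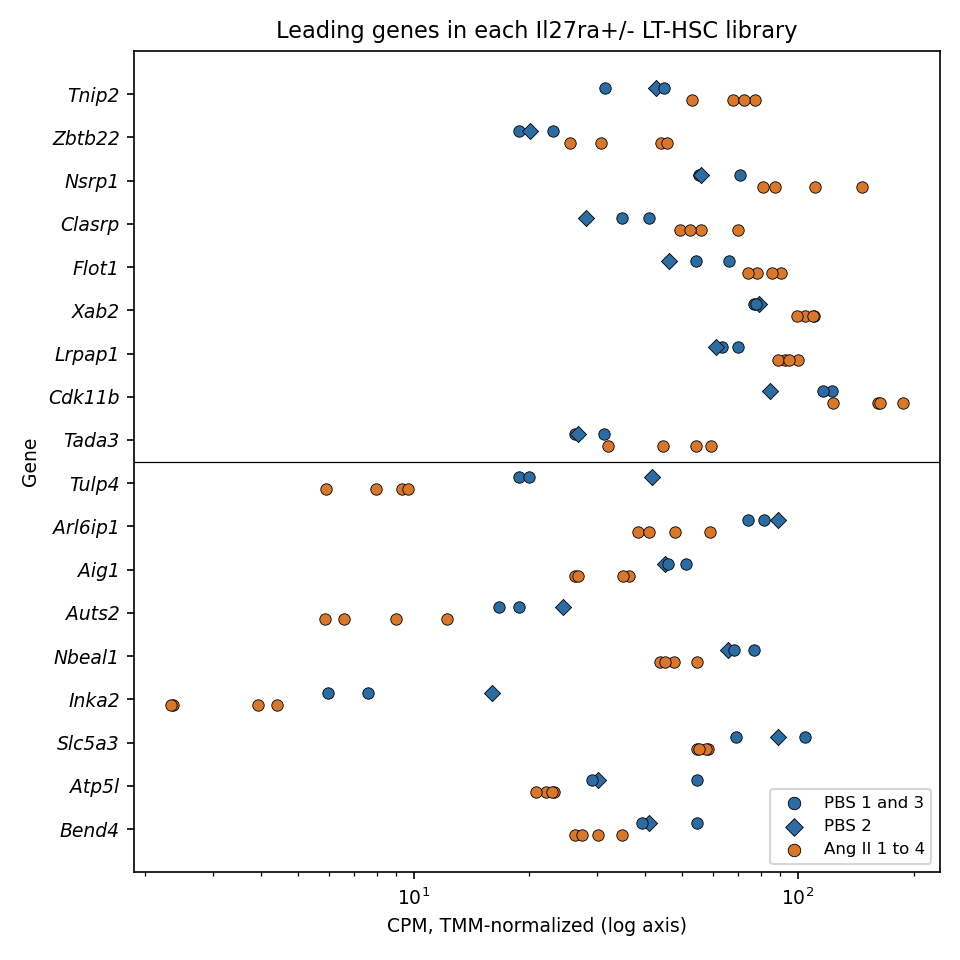
TMM-normalized CPM (log axis) of the leading genes named in the text in each *Il27ra*+/- LT-HSC library, higher with Ang II above the line and lower below it; each point is 1 library, blue for PBS (diamond, PBS replicate 2) and orange for Ang II. The groups do not overlap for any of them because the genes were chosen that way; *Tulp4*, *Arl6ip1*, *Auts2* and *Inka2* have their highest value in PBS replicate 2.

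Gene lists were read by their counts and medians. The 27 pathway lists held 642 different tested genes, of which 0 passed the test, 9 (1.4%) were higher and 4 (0.623%) lower at an unadjusted p under 0.05, with a median log2 fold change of 0.01. Among all genes with a mean of at least 5 CPM the shares were alike, at 1.38% higher and 0.626% lower. Without PBS replicate 2 there were 6 higher (0.94%) and 4 lower (0.627%) of 638, against 0.447% and 0.474% of all genes tested in that fit, whatever their level. In bulk samples, fewer cells of a type and less RNA per cell cannot be told apart.

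For IL-27 receptor signaling genes, the list median was near 0. Of 23 tested, 13 were fitted higher, 10 lower and 0 reached an unadjusted p under 0.05; the median was 0.08 (0.05 without PBS replicate 2). *Jak1*, the kinase bound to the receptor, measured 433.9, 353.6 and 454.5 CPM with PBS and 451.3, 490.6, 462.7 and 481.3 CPM with Ang II. PBS replicate 2 was low and the remaining libraries were close. *Stat3* measured 269.7, 216.8 and 259.8 CPM against 285.5, 277.5, 250.3 and 314.5 CPM (0.18 ± 0.14), with overlap. In the renin-angiotensin list, 12 of 20 genes could be tested and 8 had a mean under 1 CPM; the median was −0.04 (0.00 without PBS replicate 2). *Prcp*, a peptidase that degrades Ang II, measured 86.7, 70.2 and 87.8 CPM with PBS and 54.5, 53.5, 88.4 and 68.3 CPM with Ang II. Ang II replicates 1 and 2 were low, and replicate 3 matched the PBS level.

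Interferon target lists had small medians, that of interferon gamma-induced genes being negative in every setting (−0.26 to −0.03). The 31 type I interferon-stimulated genes had 13 fitted higher and 18 lower and a median of −0.05, which was 0.05 without PBS replicate 2. *Irf7*, a transcription factor that amplifies the interferon response, measured 48.7, 44.5 and 34.2 CPM with PBS and 20.6, 28.7, 38.3 and 35.3 CPM with Ang II. For interferon gamma-induced genes, 9 of 27 were fitted higher and 18 lower (median −0.09, and −0.06 without PBS replicate 2). *H2-K1*, the most abundant, was at 1061, 883.2 and 1060 CPM against 972.7, 1060, 1034 and 1110 CPM, with full overlap. *Tap2*, a peptide transporter for antigen presentation, had a log2 fold change of 0.46 ± 0.24 and *Tgtp2*, an interferon-induced GTPase, −0.45 ± 0.22, the latter being −0.19 without PBS replicate 2.

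Among the cell cycle lists, mitosis genes and genes of G1 and cyclin-dependent kinases had negative medians in every setting (−0.45 to −0.15 and −0.23 to −0.06). Of 32 mitosis genes tested, 3 were fitted higher and 29 lower, with a median of −0.28 against −0.04 over all genes tested, and 0 of them reached an unadjusted p under 0.05. Without PBS replicate 2, 7 were fitted higher and 25 lower and the median was −0.18. *Mki67*, the proliferation antigen, measured 1802, 1675 and 1187 CPM with PBS and 1863, 1120, 1168 and 1342 CPM with Ang II. The libraries of both groups covered the same range, with Ang II replicate 1 the highest and Ang II replicate 2 the lowest. *Birc5*, which encodes survivin, was at 71.0, 46.2 and 40.2 CPM against 42.7, 24.8, 27.5 and 32.8 CPM (−0.71 ± 0.44), PBS replicate 1 being far above the others. The 29 genes of G1 and cyclin-dependent kinases had 8 fitted higher and 21 lower (median −0.10, and −0.12 without PBS replicate 2). *Cdk6*, a kinase of quiescence exit, was at 351.3, 252.8 and 206.8 CPM against 453.3, 263.8, 290.8 and 289.8 CPM. *Cdk1*, the mitotic kinase, was at 47.7, 59.4 and 38.7 CPM against 21.6, 22.8, 37.2 and 29.1 CPM (−0.80 ± 0.55). Its groups did not overlap, though PBS replicate 3 and Ang II replicate 3 nearly met. DNA replication genes (34 tested) had a median of −0.05, with *Mcm6*, a helicase subunit, at 361.4, 389.2 and 325.5 CPM against 339.4, 296.8, 438.1 and 393.3 CPM.

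Quiescence regulators had 21 of 32 fitted higher and 11 lower, with 0 at an unadjusted p under 0.05 and a median of 0.07. Without PBS replicate 2, 2 had an unadjusted p under 0.05, against 0.447% higher and 0.474% lower of all genes tested in that fit. The median was then 0.01. *Txnip*, which encodes a thioredoxin-binding protein of resting stem cells, measured 909.4, 703.7 and 1257 CPM with PBS and 509.2, 1092, 1008 and 1200 CPM with Ang II. The spread within each group exceeded the difference between them. *Dlk1*, an imprinted Notch ligand homologue, was at 0.507, 4.75 and 3.98 CPM against 9.32, 9.04, 9.68 and 5.63 CPM (1.37 ± 0.65), so all Ang II libraries were above all PBS libraries at a low level. Of the 12 cell cycle inhibitors tested, *Cdkn1b* (p27) was the most abundant, at 89.7, 65.2 and 93.5 CPM against 80.9, 83.3, 104.0 and 81.0 CPM. For p53 targets, 17 of 27 were fitted higher (median 0.08), and the median was −0.06 without PBS replicate 2. *Trp53* itself overlapped fully, at 132.8, 117.7 and 135.3 CPM against 136.4, 122.6, 122.3 and 130.6 CPM, while *Xpc*, a DNA damage sensor, had a log2 fold change of 0.50 ± 0.25.

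HSC identity genes had a median near 0, and its sign differed between settings. Of 28 tested, 18 were fitted higher and 10 lower with all libraries (median 0.05) and 10 higher and 18 lower without PBS replicate 2 (median −0.04). *Kit*, the stem cell factor receptor, measured 1125, 751.2 and 964.0 CPM with PBS and 953.1, 1271, 893.2 and 826.8 CPM with Ang II. *Meis1*, a homeobox factor of stem cells, was at 608.8, 572.1 and 710.5 CPM against 735.8, 659.6, 598.2 and 606.3 CPM. Both overlapped fully. The multipotent progenitor list had 5 of 14 fitted higher and 9 lower, and its most abundant gene, *Cd34*, ranged from 43.8 CPM in Ang II replicate 3 to 181.0 CPM in Ang II replicate 1, a wider range than that of PBS (79.4 to 110.0 CPM).

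For megakaryocyte and platelet genes, all 21 tested members were fitted higher with Ang II, 0 of them at an unadjusted p under 0.05, and the median was 0.32 (0.31 without PBS replicate 2, 0.11 without Ang II replicate 3, and −0.10 in libraries under 4000000 counts). The summed level was 3366, 3157 and 3342 CPM with PBS and 3090, 2789, 5533 and 4634 CPM with Ang II. Ang II replicates 3 and 4, the deep female libraries, were high, whereas Ang II replicates 1 and 2, both male, were below all PBS libraries. *Itga2b*, the integrin CD41, was also highest in Ang II replicates 3 and 4, at 423.3, 341.0 and 266.9 CPM with PBS and 474.3, 313.3, 733.9 and 657.1 CPM with Ang II (0.67 ± 0.36). *Vwf*, a mark of platelet-biased stem cells, was at 491.2, 585.6 and 677.0 CPM against 310.0, 377.0, 1036 and 712.5 CPM (0.06 ± 0.96). The list median was 0.31 with a Y-linked covariate and 0.21 with a term for totals above or below 4000000 counts. Myeloid commitment genes had 13 fitted higher and 14 lower of 27 (median −0.15, and 0.01 without PBS replicate 2). Their median was −0.48 without PBS replicate 1 and had the other sign in 10 of 21 alternatives. *Spi1*, the PU.1 factor, was at 34.98, 22.4 and 30.9 CPM against 49.1, 49.9, 34.97 and 48.6 CPM (0.63 ± 0.52).

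For some stress genes single libraries stood far from the rest, while others did not overlap between the infusions. Of 25 immediate early genes, 19 were fitted higher and 6 lower, with a median of 0.30. This median was 0.15 without PBS replicate 2, 0.60 without PBS replicate 3, and between 0.07 and 0.67 over all settings. *Jun*, a subunit of AP-1, measured 441.5, 96.4 and 383.7 CPM with PBS and 531.7, 755.9, 718.3 and 442.7 CPM with Ang II (1.00 ± 0.61). PBS replicate 2 was several times below all other libraries, and without it the value was 0.57. *Egr1* was also lowest there, at 131.3, 54.6 and 318.1 CPM against 142.7, 408.8, 224.1 and 176.8 CPM. The heat shock and unfolded protein list had 15 fitted higher and 10 lower (median 0.07), and 10 higher and 15 lower without PBS replicate 2 (median −0.06). In the fit of all libraries, 3 of 25 were higher and 2 lower at an unadjusted p under 0.05. The shares were 0.99% higher and 3.94% lower of all genes tested, and 1.38% and 0.626% of those with a mean of at least 5 CPM. *Hspa5*, the chaperone BiP, was at 396.9, 413.6 and 359.9 CPM against 446.9, 487.0, 710.8 and 501.0 CPM (0.46 ± 0.18), and *Hsp90b1*, its partner in the endoplasmic reticulum, was at 698.0, 541.5 and 492.1 CPM against 849.1, 660.0, 768.0 and 823.3 CPM (0.43 ± 0.19). Every Ang II library exceeded every PBS library for *Hspa5*, while PBS replicate 1 overlapped for *Hsp90b1*. The inducible *Hspa1a*, whose near-identical neighbour *Hspa1b* may share its reads, was at 159.2, 17.6 and 3.44 CPM against 11.8, 0.393, 5.06 and 0.823 CPM, with a log2 fold change of −3.85 ± 1.52 that was −1.30 or lower in every setting. PBS replicate 1 was far above the rest, PBS replicate 2 was above every Ang II library, and PBS replicate 3 lay among them. Inflammatory and NF-κB genes had 17 of 24 fitted higher (median 0.18, and 0.10 without PBS replicate 2). *Nfkb2*, the p100 subunit, was at 33.0, 25.8 and 34.2 CPM against 58.4, 43.6, 44.9 and 49.4 CPM (0.66 ± 0.22, unadjusted p = 0.00838), without overlap, and *Nfkb1* at 155.1, 134.0 and 163.2 CPM against 188.9, 153.3, 172.7 and 179.6 CPM.

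Cholesterol synthesis and efflux genes had 28 of 36 fitted higher and 8 lower. At an unadjusted p under 0.05, 3 were higher, against 0.99% of all genes tested and 1.38% of those with a mean of at least 5 CPM. Without PBS replicate 2 there were 2, against 0.447% of all genes tested in that fit. The median was 0.17 and did not turn in any setting tried (0.08 to 0.25; 0.22 without PBS replicate 2). *Nr1h2*, the sterol-sensing receptor LXRβ, was at 84.2, 63.8 and 72.9 CPM with PBS and 95.2, 102.6, 85.6 and 115.0 CPM with Ang II (0.44 ± 0.16), without overlap. *Srebf2*, the transcription factor of sterol synthesis, was at 254.5, 203.2 and 241.5 CPM against 248.7, 292.9, 281.7 and 235.2 CPM, and the efflux pump *Abca1* at 152.1, 115.4 and 172.2 CPM against 114.3, 136.0, 130.9 and 159.5 CPM, both with overlap.

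Energy metabolism and protein synthesis lists had medians near 0. Glycolysis had 14 of 23 fitted higher (median 0.07, and 0.01 without PBS replicate 2), nuclear-encoded oxidative phosphorylation 18 of 37 (−0.01 in both fits) and cytosolic ribosomal proteins 25 of 50 (0.00). The ribosomal split without PBS replicate 2 was 11 higher and 39 lower, with a median of −0.09. *Sdha*, the catalytic subunit of complex II, had all 4 Ang II libraries above all PBS libraries, at 193.6, 198.8 and 198.5 CPM with PBS and 234.5, 237.8, 264.8 and 245.8 CPM with Ang II (0.32 ± 0.14, unadjusted p = 0.0307). The same list held *Atp5l*, which was lower (unadjusted p = 0.0177). Mitochondrially encoded genes were not analysed here, since none of the 13 listed matched the count table. Chromatin regulators mutated in clonal hematopoiesis had a median of 0.07 over 19 genes (0.02 without PBS replicate 2), with *Tet2* at 119.1, 93.0 and 121.9 CPM against 167.3, 141.1, 101.4 and 125.8 CPM. The other lists had medians, with all libraries and without PBS replicate 2, of −0.14 and −0.05 (MHC class II, 8 genes), −0.13 and −0.01 (Hox cluster, 17), −0.06 and −0.12 (antioxidant and detoxifying, 31), 0.02 and −0.08 (niche adhesion and homing, 21), 0.07 and 0.01 (autophagy and lysosome, 25) and 0.09 and 0.03 (growth factor and cytokine receptors, 26). The MHC class II median was negative in every setting (−0.24 to −0.01). The median for niche adhesion and homing had the other sign in 15 of 21 alternatives, among them DESeq2 (−0.03), upper-quartile scaling (−0.04) and PBS replicate 2 left out. In this list 1 member was lower at an unadjusted p under 0.05 (3.94% of all genes tested, 0.626% of those with a mean of at least 5 CPM). With that library left out, 0 were. The homing receptor *Cxcr4* was highest in PBS replicate 1 (112.0 CPM) and lay between 22.1 and 53.01 CPM in the remaining libraries.

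**Figure D3:**
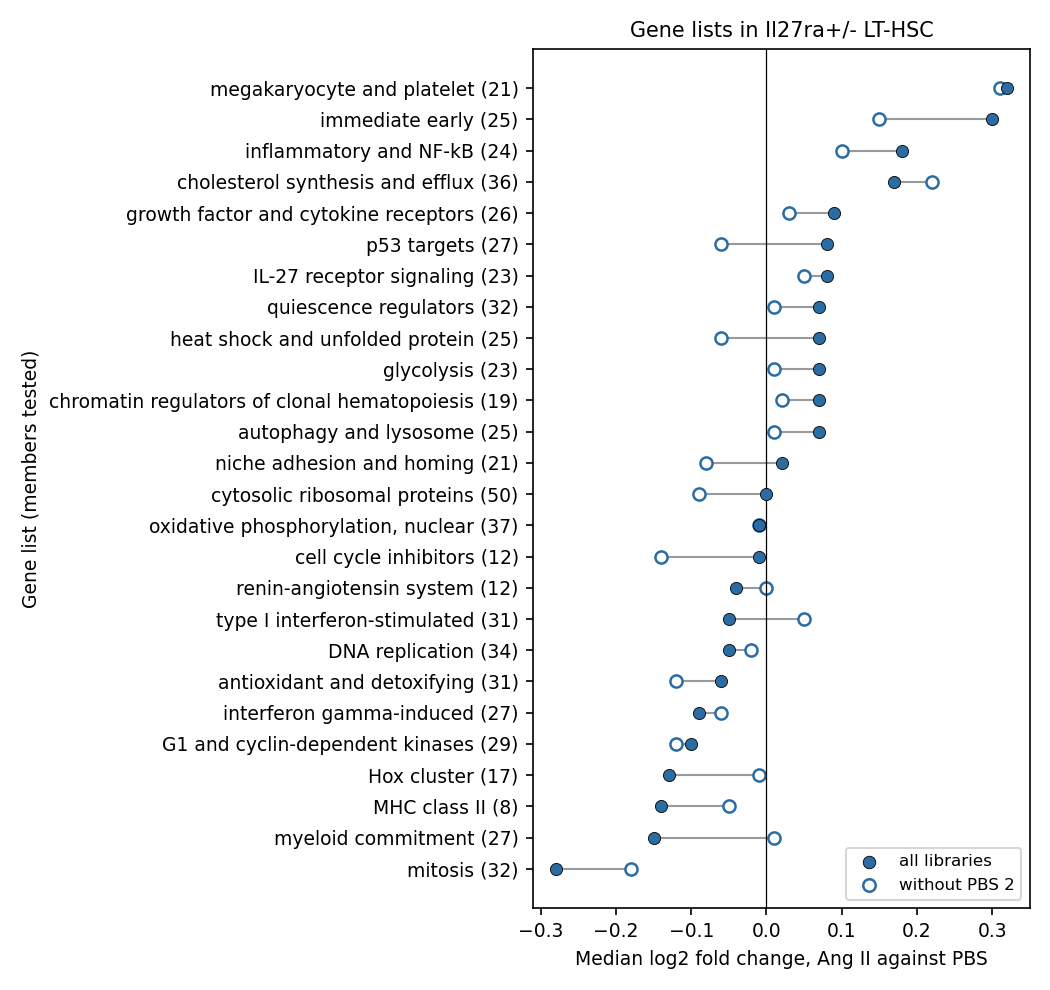
Median log2 fold change of Ang II against PBS (x axis) for each pathway list, with the number of members tested in brackets; filled circles use all libraries and open circles leave out PBS replicate 2. With all libraries, medians run from −0.28 for mitosis to 0.32 for megakaryocyte and platelet genes.

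Summed markers of other cell types varied widely between libraries of the same infusion. Erythroid markers (16 of 17 matched) summed to 474.0, 705.7 and 1686 CPM with PBS and 403.7, 914.3, 629.2 and 647.0 CPM with Ang II. *Car2* was the most abundant of them, and *Hba-a2*, a hemoglobin gene with a near-identical copy, ran from 3.55 to 317.0 CPM within the PBS group alone. Mature granulocyte markers summed to 99.9, 105.2 and 204.8 CPM against 158.4, 173.7, 118.1 and 112.3 CPM, mostly *Lyz2*, which was fitted higher, whereas 13 of the 15 tested members were fitted lower. Monocyte and macrophage markers summed to at most 57.0 CPM, with 12 of 14 tested members fitted lower. Of the 16 erythroid markers tested, 15 were fitted lower. For erythroid and granulocyte markers this direction rested on PBS replicate 3, since without it the medians went from −0.66 to 0.64 and from −1.56 to 0.16. None of these 3 lists had a member at an unadjusted p under 0.05 with the filter used here, and low members could enter the test through a single library. B lymphoid markers reached 130.0 CPM in Ang II replicate 1, where *Ighm* was at 90.8 CPM, and 13.8 to 72.4 CPM elsewhere. Of the 8 tested, 2 were fitted higher and 6 lower, and 4 higher and 2 lower without PBS replicate 2. T and NK markers stayed between 12.8 and 30.9 CPM, with 4 of 14 at 0 in all 7 libraries. Eosinophil, basophil and mast cell markers reached 42.8 CPM in Ang II replicate 4, with *Prg2* at 20.6 CPM, and 1.47 to 20.6 CPM elsewhere. Endothelial and stromal markers summed to 141.9 to 203.0 CPM, led by *Pecam1*, which stem cells also express. The intestinal list was carried by *Muc13*, likewise a gene of blood progenitors, at 564.2, 435.7 and 402.6 CPM with PBS and 641.1, 513.0, 601.5 and 595.4 CPM with Ang II (0.33 ± 0.14); 24 of its 30 genes had a mean under 1 CPM. Of the 25 tested, 3 were fitted higher and 17 lower, with 1 higher and 4 lower at an unadjusted p under 0.05 (0.99% and 3.94% of all genes tested), so *Muc13* ran against most of its list. With PBS replicate 2 left out, 4 were fitted higher and 14 lower, and 2 had an unadjusted p under 0.05, against 0.447% higher and 0.474% lower of all genes tested in that fit. *Cdh17*, an intestinal cadherin, reached 3.39 CPM in PBS replicate 2 and at most 0.724 CPM elsewhere. Whether admixed cells contributed to any difference was not tested.

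The Ang II change was then compared with that in LT-HSC of *Apoe*-/-*Il27ra*-/- mice by the interaction term. Single *Il27ra*-/- libraries stood apart. *Flt3* was at 459.1 CPM in PBS replicate 2 of that genotype and at most 88.0 CPM in its other libraries, and *Vwf* at 6.39 CPM against 121.2 CPM or more. In its Ang II replicate 2, *Lyz2* was at 1768 CPM, against at most 328.2 CPM in the others. The *Flt3* value of the *Il27ra*-/- PBS replicate 2 lay in the range of the heterozygous HPC-1 libraries (222.9 to 467.9 CPM, scaled over all 36 libraries). The defining markers were checked above for heterozygous libraries only, and the cause was not tested. Fold changes of single genes given below are from fits that keep both libraries. Of 16365 genes, 0 (0%) differed at an adjusted p under 0.05 (edgeR); at the unadjusted level the change was more positive in *Il27ra*+/- cells for 121 (0.739%) and more negative for 293 (1.79%). Without PBS replicate 2 of the heterozygous mice these were 0 (0%), 68 (0.468%) and 48 (0.33%) of 14545. DESeq2 called 0 genes (98 and 172 unadjusted) and limma-voom 0 (314 and 388). With both of these *Il27ra*-/- libraries left out, edgeR called 0 of 16205 genes (88 and 124 unadjusted), and 0 of 14355 (69 and 40) when PBS replicate 2 of the heterozygous mice was left out as well. *Tulp4* had a log2 fold change of −1.70 ± 0.44 in *Il27ra*+/- and 0.13 ± 0.44 in *Il27ra*-/- LT-HSC, a difference of −1.83 ± 0.62. In the *Il27ra*-/- cells it measured 20.4, 14.7 and 17.03 CPM with PBS and 19.9, 38.3, 11.1 and 8.16 CPM with Ang II, so those groups overlapped. *Il27ra* itself differed by −0.62 ± 0.41. Among the 20 leading genes, 8 of 10 higher and 7 of 10 lower kept their sign in *Il27ra*-/- cells, and 7 differed between genotypes at an unadjusted p under 0.05, which is no independent evidence since the genes were chosen on the *Il27ra*+/- libraries.

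The corresponding comparison with HPC-1 of *Apoe*-/-*Il27ra*+/- mice covered 18013 genes in a fit of all 36 libraries. The Ang II change differed between LT-HSC and HPC-1 for 0 genes (0%) at an adjusted p under 0.05 (edgeR), and at the unadjusted level it was more positive in LT-HSC for 153 (0.849%) and more negative for 393 (2.18%). Without PBS replicate 2 the counts were 0 (0%), 129 (0.784%) and 132 (0.802%) of 16452. DESeq2 called 0 genes (111 and 262 unadjusted) and limma-voom 0 (299 and 573). *Clasrp* had a log2 fold change of −0.44 ± 0.25 in HPC-1 and a difference of 1.16 ± 0.35 between the populations, and *Auts2* 0.23 ± 0.37 and −1.46 ± 0.54. In HPC-1, *Clasrp* measured 53.6, 77.7 and 41.1 CPM with PBS and 47.8, 35.1, 44.7 and 41.5 CPM with Ang II. *Auts2* was at 39.0, 28.6 and 22.6 CPM against 53.7, 31.9, 32.6 and 23.6 CPM there, so the HPC-1 groups overlapped for both genes. Of the 20 leading genes, 8 of 10 higher and 7 of 10 lower had the same sign in HPC-1, and 6 differed at an unadjusted p under 0.05; as the genes were chosen on the same LT-HSC libraries, this is no independent evidence.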

How the data were processed

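Each library held total RNA of 5000 sorted cells. The authors aligned reads to mm10 and estimated gene counts with RSEM. The study names STAR with a different version of RSEM, and the labels name Bowtie2 with RSEM 1.2.31. The Ensembl release is not given in the sources used here. The deposited expected counts were whole numbers (0 values were not) for 38887 genes, not normalized. Symbols matched 37570 identifiers with 99.63% of counts; positions come from GENCODE M21 (GRCm38, mm10).

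Genes were tested in R 4.3.3 with edgeR 4.0.16 (filterByExpr, TMM, robust quasi-likelihood test) on all 17 LT-HSC libraries in 6 groups, or all 36 in 12 groups for HPC-1, with Benjamini-Hochberg adjustment at 5%. CPM are TMM-normalized, and per-library values for the HPC-1 comparison use the scaling of all 36 libraries. Errors of fold changes are SE and intervals are at 95%. DESeq2 1.42.0, limma-voom (limma 3.58.1), other scalings, filters and covariates were tried, and libraries of the compared groups were left out 1 at a time. The analysis code was tested on simulated data. A floor of 3 counts was used, which covers counting error only.

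Named genes were *Il27ra*, *Apoe*, genes passing the test, otherwise 10 per direction by unadjusted p (a mean of at least 5 CPM, no overlap, no placeholder symbol), and up to 3 of highest mean and 3 of smallest p from each of 38 lists, of whose 905 entries 889 matched. Members and lists were chosen with earlier results of these data known. Libraries of a group differed by more than sampling noise. The labels do not say whether libraries are separate mice, so p-values measure the spread between libraries. Fits with PBS replicate 2 left out under other tools, and those leaving out *Il27ra*-/- or HPC-1 libraries, were chosen after seeing the data.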

Additional observations from a re-analysis of the deposited data

Results flagged for a closer look

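Among the 4 Ang II libraries, 3 of 63 series of values had 1 library far from the others, judged on log2 values by its gap to the nearest library over the whole range (past a critical value that chance passes in about 1 of 20 groups, so that about 3 of 63 would pass it by chance alone). The summed level of IL-27 receptor signaling genes was 2261, 2235, 2240 and 2425 CPM, with replicate 4 apart at a ratio of 0.858. Cell cycle inhibitors summed to 236.4, 227.6, 300.4 and 227.8 CPM, replicate 3 being apart at 0.863. Antioxidant and detoxifying genes summed to 2219, 2963, 3054 and 3090 CPM, and replicate 1 was apart at 0.873. With 3 libraries the PBS group was not examined in this way.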

How the results depend on the processing

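The count of 0 genes called between Ang II and PBS held in 20 of 21 alternatives, including DESeq2, limma-voom, upper-quartile scaling, a Y-linked covariate and each of the 7 compared libraries left out in turn (0 to 0 genes). The exception was testing every gene with a count, which called 57 of 29655 genes; the median of all genes then moved from −0.04 to −0.26, and *Tulp4* passed at −1.68 (adjusted p = 0.021). *Jun* (adjusted p = 0.000858), *Hspa1a*, *Ighm*, *Hba-a2* (0.00534) and *Prg2* (0.0174) also passed there, as did several mature granulocyte markers, and none of them in any other alternative. Without that filter the difference between genotypes gave 71 genes and that between LT-HSC and HPC-1 gave 44. Libraries under 4000000 counts gave 1 gene for the genotypes, *Hist1h4m*. The cause was not tested. Leaving out 1 heterozygous LT-HSC library gave 0 genes for both differences. After seeing the data, each of the 7 *Il27ra*-/- LT-HSC libraries was left out for the genotypes, which gave 0 genes (61 to 226 higher and 175 to 355 lower unadjusted), and each of the 7 HPC-1 libraries for the populations, which gave 0 (91 to 294 and 230 to 852).

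At an unadjusted p under 0.05, leaving out 1 library moved the higher genes between 65 and 277 and the lower genes between 69 and 964; the lowest of each came without PBS replicate 2 and the highest without PBS replicate 1. Upper-quartile scaling gave 118 higher and 701 lower. A Y-linked covariate gave 195 and 602, a term for totals above or below 4000000 counts 209 and 425, libraries under 4000000 counts 170 and 120, thinning 143 and 468, and the 2 groups alone 188 and 228 of 12149 genes.

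Same-numbered PBS and Ang II libraries had deviations correlated at 0.30, 0.09 and −0.01, and differently numbered ones between −0.23 and 0.19. So few libraries cannot show whether replicate numbers pair them. With a replicate block 0 genes were called, with 195 higher and 150 lower, and both differences also gave 0.

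*Il27ra* turned to 0.09 with limma-voom and to 0.20 without PBS replicate 1, against −0.09 with all libraries and −0.24 without PBS replicate 2, and *Apoe* to −0.039 with limma-voom and −0.0021 when PBS replicate 2 was also left out. The 20 leading genes kept their sign in every alternative, which their choice for no overlap made likely.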
